A study of Mus musculus with 11 samples.

Results

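The 78 genes described here are named for proteins of the mitochondrial ribosome, and all but Mrps36 encode one. They are the genes of the deposited expression table whose symbols begin with Mrpl or Mrps followed by a digit, 78 of 18269 genes in all. Of 83 symbols that match this pattern, 5 carry the pseudogene mark -ps and were left out. By name 49 belong to the large subunit (Mrpl) and 29 to the small subunit (Mrps). RNA had been measured in the tibialis anterior (the main muscle at the front of the lower leg, made up largely of fast fibres) of C57BL/6 mice that were 21 to 24 months old and part of a muscle injury model. One group had been injected with saline (4 libraries), another with serum from young mice (4 libraries), and the third with young serum from which extracellular vesicles (EVs), small membrane-enclosed particles shed by cells, had been depleted (3 libraries). No genotype, transgene or sex is given in the labels, and age, strain, tissue and injury model are shared by the groups. Whether each library came from its own animal is not said in the labels, so the spread behind every p-value is that between libraries and may be partly technical. Libraries are called here by the number in their label: saline 2, 3, 4 and 6, young serum 1, 2, 3 and 4, and EV-depleted 2, 3 and 4.

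Mitochondria keep a small genome of their own, and their ribosome reads the messages of that genome, which encode core subunits of the respiratory chain. The ribosomal RNAs come from the mitochondrial genome, whereas every protein of the particle is encoded in the nucleus, made in the cytosol and imported. Compared with its bacterial ancestor the particle has lost RNA and gained proteins, so some of its proteins have bacterial homologues and others are additions of the mitochondrial lineage. In skeletal muscle, a tissue rich in mitochondria, it supplies the membrane-embedded parts of oxidative phosphorylation.

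Levels are CPM (counts scaled to a library total of 1000000), and a gene's CPM can be set against that of another gene only after division by its transcript length. All 78 genes passed the filter on low values (at least 1 CPM in at least 3 libraries), which left 13187 genes tested. All 78 matched GENCODE M21, an annotation of the mm10 build, by start and end. For 26 of them (33.3%, against 25.7% of 11802 tested protein-coding genes) the annotated span overlaps another protein-coding gene. Among them are Mrpl14, Mrpl21, Mrpl24, Mrpl44, Mrpl47, Mrpl53, Mrps6, Mrps7, Mrps18a, Mrps24, Mrps25, Mrps30 and Mrps34. The sources used here do not give how strand was handled, so reads of such pairs cannot be told apart and these values are uncertain. A start of an opposite-strand protein-coding gene lies within 1000 bases of the start of 33 members (42.3%, against 16.1% of the tested protein-coding genes). The genes Mrpl46 and Mrps11, one for each subunit, face each other in this way and overlap.

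The libraries held an estimated 36.4 to 42.2 M counted reads (M, 1000000). Summed CPM of 7 skeletal muscle fibre markers was 121886 to 163241 in every library, as the labelled tissue would give. Saline 6 stood apart: 6 slow-fibre markers summed to 4513 CPM there, against 169 to 294 in the other saline libraries, 124 to 1213 after young serum and 991 to 1688 after EV-depleted serum. The sum of 5 red blood cell markers was 1488 CPM in saline 6, with 191 to 468 in its group otherwise. Most of it was Hbb-bs (1121 CPM, against 79.6 to 180 in the other saline libraries), and Hbb-bt was also high (62.3 against 8.44 to 17.0). Hba-a1 and Hba-a2 were close to saline 4 (155 against 129 CPM and 148 against 140 CPM), and Alas2 was lower than there (2.57 against 2.99 CPM). The 8 adipocyte markers summed to 8101 CPM in saline 4, against 1358 to 2389 CPM in all other libraries. The sum of 9 macrophage markers was 125 to 330 CPM in saline, 52.7 to 155 CPM after young serum and 71.5 to 123 CPM after EV-depleted serum. Whether these cell types bear on the results below was not tested, and in whole muscle fewer cells of a type and less RNA per cell cannot be told apart.

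Mean level over the 11 libraries, not divided by transcript length, ran from 0.892 CPM for Mrpl23 to 131 CPM for Mrpl12. The mean of Mrpl12 is raised by saline 6, at 412 CPM, with 81.4 to 128 CPM in all other libraries. Mrpl23, a protein beside the exit of the nascent chain, had 0.695, 1.02, 0.729 and 0.891 CPM in saline, 0.343, 1.04, 1.14 and 1.28 CPM after young serum and 0.910, 0.689 and 1.09 CPM after EV-depleted serum. Its 3 groups overlapped, and its level is uncertain. A processed copy, Mrpl23-ps1, stood at 70.98 CPM, and the copy and the gene were identical over 540 aligned bases (100%), so reads from the gene may have been counted for the copy. The copies of Mrpl48 and Mrps36 were 98.1% to 99.3% identical to their genes, and the same doubt holds there. Per kilobase of transcript the highest members were Mrps21, at 189 CPM per kilobase, and Mrpl42, at 187. Mrpl47 was among the lowest large-subunit members on that scale, at 3.65 CPM per kilobase. Mrps7, an RNA-binding protein of the small subunit head, stood at 38.2, and Mrps22, an addition of the mitochondrial lineage, at 9.16.

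Many nuclear genes for mitochondrial proteins carry binding motifs for NRF1, for ETS family factors such as GABP, or for YY1 near their start. Promoter windows of 300 bases (250 before to 50 after the start, RefSeq, GRCm38.p6) were found for 69 of the 78 genes. The letters CCGGAAG, an ETS core, on either strand were in the windows of 26 of the 69 genes (37.7%), against 19.99% of 9761 tested genes with a window and 9.93% of all 27025. The NRF1 letters, GCGC, any base and then TGCGC, were in 18.8%, against 11.6% and 5.19%, and the YY1 letters AAGATGGC in 17.4%, against 5.31% and 3.19%. The ETS letters were in 34.9% of the windows of large-subunit genes and 42.3% of those of small-subunit genes, the NRF1 letters in 23.3% and 11.5%, and the YY1 letters in 14.0% and 23.1%. The 26 genes with the ETS letters had a median difference between young serum and saline of -0.39 on the log2 scale, and the 43 without had -0.34. The median share of G and C bases was 58.7% in the windows of members and 52.7% in all windows. Whether this base content bears on the motif shares was not tested. A match is a description of letters and not a binding site. The stretches below are bases before the RefSeq start of 3 genes that no exon of any GENCODE M21 transcript covers, shown because these genes appear in the results that follow and carry a match, whose letters are in capitals. They were chosen after the values were seen, as the named gene with the smallest p for young serum against saline that holds a motif there, for each motif and subunit.
Mrps18c (chr5:100798599-100798626, plus strand): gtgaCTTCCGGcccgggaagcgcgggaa
Mrpl52 (chr14:54426659-54426908, plus strand): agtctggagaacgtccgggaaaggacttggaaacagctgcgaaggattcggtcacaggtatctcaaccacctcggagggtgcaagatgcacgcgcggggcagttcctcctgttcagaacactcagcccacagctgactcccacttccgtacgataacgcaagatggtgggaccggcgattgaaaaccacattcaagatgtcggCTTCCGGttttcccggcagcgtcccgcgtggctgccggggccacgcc
Mrpl12 (chr11:120484387-120484612, plus strand): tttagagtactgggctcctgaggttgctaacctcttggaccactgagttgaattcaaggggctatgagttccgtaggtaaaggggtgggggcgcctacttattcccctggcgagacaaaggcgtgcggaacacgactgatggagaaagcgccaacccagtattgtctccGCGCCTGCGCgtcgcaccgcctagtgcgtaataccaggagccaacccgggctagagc
The first is the short gap between Mrps18c and Helq, a DNA helicase gene on the opposite strand. Its capitals and those of Mrpl52 are the ETS letters, both on the minus strand, and the capitals of Mrpl12 are the NRF1 letters.

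Saline 6 had the highest summed level of these genes. The median ratio of its CPM to the mean of the other saline libraries was 1.44 for large-subunit and 1.34 for small-subunit genes, against 0.836 for all tested genes, and a few large-subunit genes went well above that. The summed level of the 49 large-subunit genes was 1893, 2069, 2068 and 4052 CPM in saline 2, 3, 4 and 6, against 1544 to 1882 CPM after young serum and 1789 to 2165 CPM after EV-depleted serum. For the 29 small-subunit genes the sums in saline were 933, 1079, 1061 and 1470 CPM, against 789 to 949 CPM after young serum and 886 to 1086 CPM after EV-depleted serum. The ratio of the large to the small sum was 2.76 in saline 6 and 1.92 to 2.07 in the other 10 libraries. Of the 78 genes, 65 had their highest value in saline 6, and 61 had their lowest in young serum 4. The shares of all tested genes with their extremes in these libraries were not counted, so both counts describe the members only. At least 2-fold the mean of the other saline libraries was reached in saline 6 by 14 members, 13 large and 1 small, against 4.66% of all tested genes. The same threshold, chosen after the values were seen, was passed by 33 of 78 cytosolic ribosomal protein genes and 13 of 36 complex I genes.

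**Figure D1:**
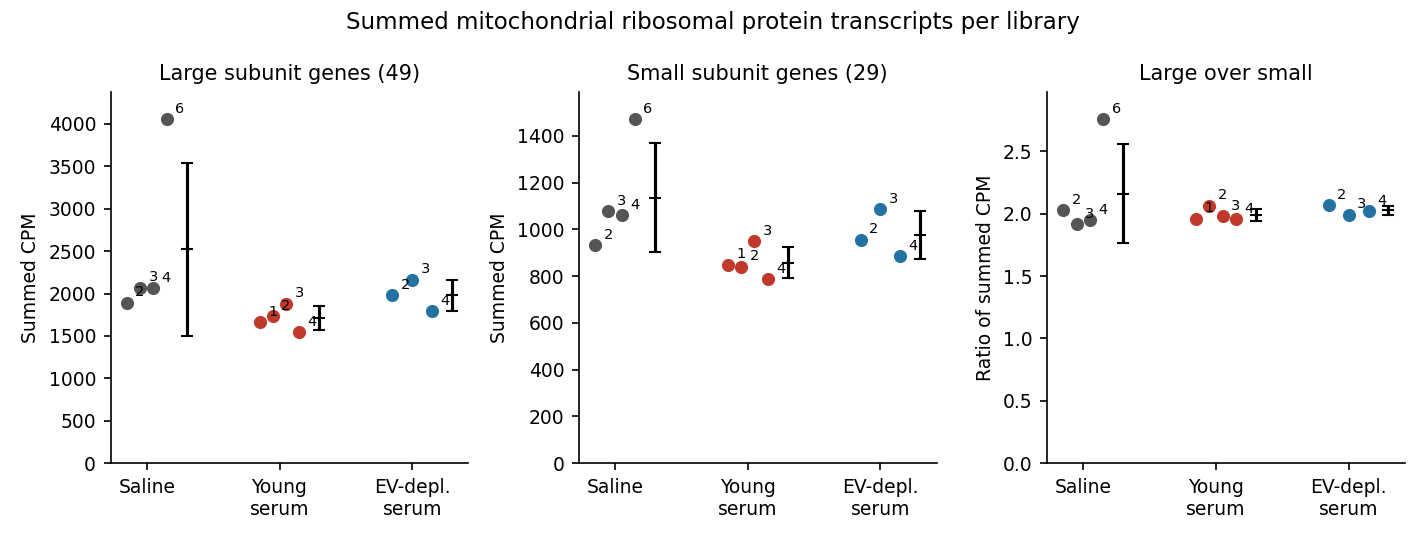
Summed CPM of large-subunit genes (left) and small-subunit genes (middle), and their ratio (right), in each library, with library numbers beside the points and the group mean with SD in black. Saline 6 stands at 4052 and 1470 CPM with a ratio of 2.76, above all other libraries, whose ratios are 1.92 to 2.07.

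The genes that led this excess were chosen after their values were seen, apart from Mrpl11 and Mrpl12, which were listed for their known roles. That list was itself made with earlier results of these data known. Mrpl53 stood at 316 CPM in saline 6 against 46.5 to 53.8 CPM in saline 2, 3 and 4, a ratio of 6.29. Mrpl14 stood at 320.3 CPM against 52.9 to 61.3, and Mrpl41 at 77.6 CPM against 16.04 to 22.02. These 3 belong to the large subunit. The member past 2-fold that is named for the small subunit, Mrps24, stood at 129 CPM against 49.2 to 55.2. The spans of Mrpl53, Mrpl14 and Mrps24 overlap other protein-coding genes, so these values are uncertain. Of 5 mitoribosomal proteins under other symbols, not placed by subunit here, 2 passed 2-fold. Among these 5, Chchd1 stood at 198 CPM in saline 6 against 47.6 to 58.1 CPM in saline 2, 3 and 4. Mrpl12, the stalk protein that recruits translation factors and also binds the mitochondrial RNA polymerase, had 108, 115, 111 and 412 CPM in saline, 84.5, 92.5, 101 and 81.4 CPM after young serum and 114, 128 and 89.4 CPM after EV-depleted serum. Only saline 6 stood apart, and the other saline libraries lay above all young serum libraries and within the EV-depleted range. Mrpl11, at the base of the same stalk, had 37.2, 41.5, 41.4 and 145 CPM in saline, 33.3, 30.4, 34.8 and 28.8 CPM after young serum and 38.6, 42.7 and 36.00 CPM after EV-depleted serum. All saline values were above all young serum values for Mrpl11 too, and saline 6 was again far above the rest.

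**Figure D2:**
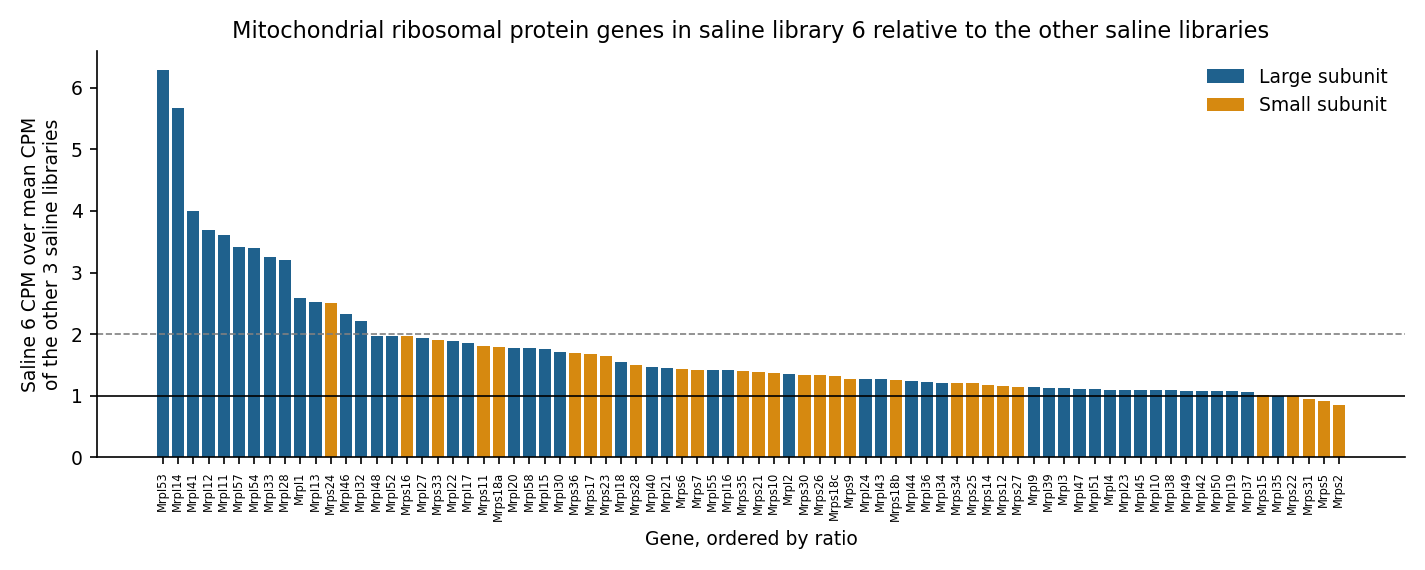
Each bar is 1 of the 78 genes, ordered by its CPM in saline 6 divided by the mean CPM of the other 3 saline libraries, with a solid line at 1 and a dashed line at 2. Large-subunit genes (blue) take 13 of the 14 places above 2, led by Mrpl53 at 6.29.

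Young serum against saline asks whether an injection of young serum went with another level of these genes in old muscle. The level was lower after young serum for 76 of the 78 genes, 47 of 49 large and 29 of 29 small (52.5% of all tested genes were lower). The median log2 difference was -0.36 for large-subunit genes and -0.36 for small-subunit genes (0.781 and 0.778 times saline on the CPM + 1 scale), against -0.022 for all tested genes. No gene of the group passed an adjusted p of 0.05 in limma, and 0 of 13187 genes did (0%). The smallest adjusted p among the members was 0.180. At an unadjusted p under 0.05, 40 members were lower (21 large and 19 small, against 11.4% of tested genes) and 0 were higher (10.5%). That count of lower members fell to 23 without saline 6 (8.61% of tested genes), to 10 without saline 4 and 6 together (3.47%) and to 10 after the removal of a transcript length trend described at the end (8.34%). All 4 young serum libraries lay below all 4 saline libraries for 26 members, 16 large and 10 small, against 6.08% of tested genes, and 0 members lay above (6.09%). Without saline 6 the medians were -0.21 for large and -0.23 for small (all tested genes -0.056), 76 members were still lower (57.9%), and 26 lay below all remaining saline libraries (7.46%). With sample weights in limma, whose estimation did not converge, 27 members passed, all lower (11 large and 16 small), against 26.1% of tested genes.

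**Figure D3:**
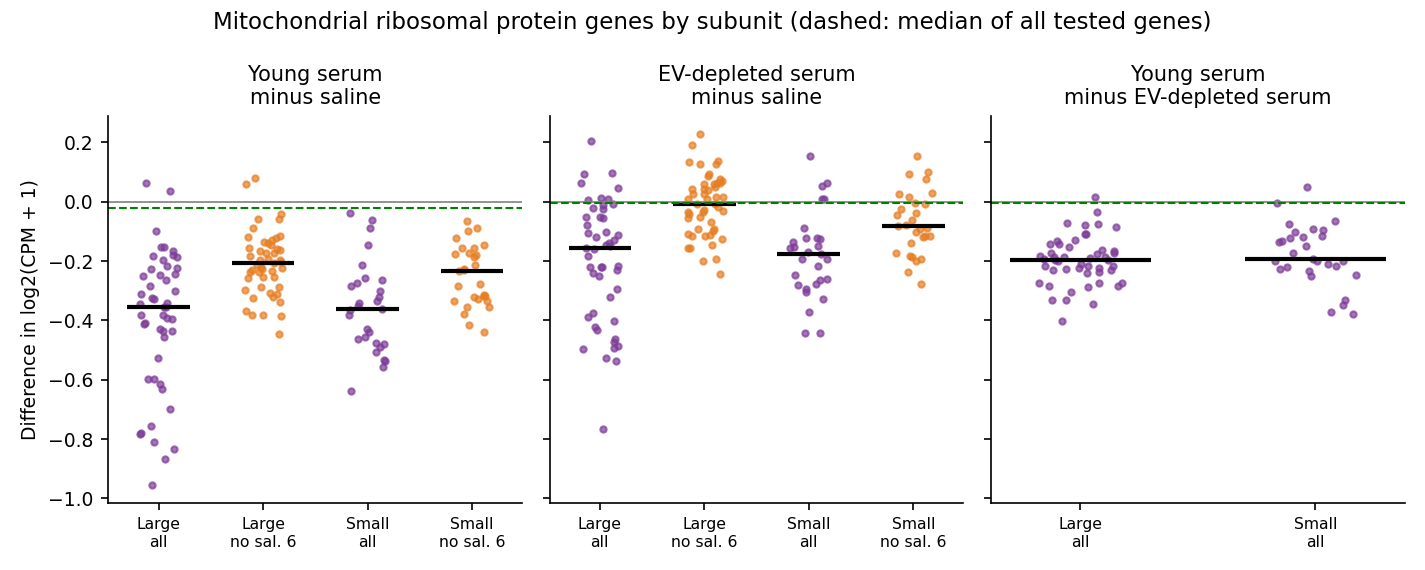
Difference in log2(CPM + 1) of each of the 78 genes in 3 comparisons, large and small subunit apart, with all libraries (purple) and without saline 6 (orange). Black bars are medians and the dashed line is the median of all tested genes. The bars lie at -0.36 for both subunits in the first panel and move to -0.21 and -0.23 without saline 6, and in the second panel they move from -0.16 and -0.18 to -0.0091 and -0.081.

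Of the small-subunit genes, those with the smallest p in this comparison were Mrps18c, Mrps12, Mrps25 and Mrps31. Mrps18c, 1 of 3 related proteins of the S18 family (chr5:100798627-100804471, plus strand), had 19.3, 19.4, 19.1 and 25.3 CPM in saline, 15.5, 13.4, 15.4 and 11.8 CPM after young serum and 15.03, 18.7 and 16.9 CPM after EV-depleted serum. Every young serum library lay below every saline library, and saline 6 was the highest. The log2 difference was -0.53 ± 0.14 (SE), with a limma adjusted p of 0.180, and -0.44 without saline 6. Over all alternatives this difference ran from -0.58 to -0.18. Mrps12, which sits at the decoding centre (chr7:28739641-28741820, minus strand), had 33.6, 40.6, 40.1 and 43.8 CPM in saline, 30.00, 25.3, 33.8 and 27.3 CPM after young serum and 31.02, 35.1 and 27.8 CPM after EV-depleted serum. Saline 2 lay within the young serum range, and the difference was -0.43 ± 0.13 (SE) with a limma adjusted p of 0.180. Over all alternatives this difference ran from -0.50 to -0.12. Mrps25, an addition of the mitochondrial lineage, had 36.1, 39.4, 42.9 and 47.4 CPM in saline, 33.2, 28.97, 35.1 and 28.7 CPM after young serum and 35.5, 39.4 and 35.8 CPM after EV-depleted serum. The young serum values did not reach the saline values, and the difference was -0.38 ± 0.11 (SE) (adjusted p 0.180). Mrps31, another such addition, had 23.1, 21.3, 23.2 and 21.5 CPM in saline, 18.2, 18.03, 18.5 and 16.8 CPM after young serum and 20.3, 18.6 and 19.8 CPM after EV-depleted serum. Here saline 6 was not high, the 3 groups did not overlap at all, and the difference was -0.30 ± 0.095 (SE), or -0.32 without saline 6.

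Of the large-subunit genes, Mrpl42, Mrpl24, Mrpl10 and Mrpl51 had the smallest p. Mrpl42, an addition of the mitochondrial lineage (chr10:95480805-95501940, minus strand), had 131, 144, 141 and 149.9 CPM in saline, 99.7, 109.5, 119 and 98.9 CPM after young serum and 121, 139 and 107 CPM after EV-depleted serum. All saline libraries lay above all young serum libraries, and the EV-depleted libraries spanned the gap. The difference was -0.41 ± 0.11 (SE), with a 95% interval of -0.64 to -0.18 and a limma adjusted p of 0.180. Over all alternatives this difference ran from -0.46 to -0.057. Mrpl24, a bacterial-type RNA-binding protein, had 34.5, 39.6, 44.3 and 50.02 CPM in saline, 33.7, 29.8, 33.2 and 29.4 CPM after young serum and 32.2, 37.3 and 36.2 CPM after EV-depleted serum. Young serum 1 came close to saline 2, and saline and young serum did not overlap. Mrpl10, which holds the stalk of Mrpl12 copies, had 34.5, 34.6, 35.1 and 37.8 CPM in saline, 28.8, 29.3, 30.7 and 27.2 CPM after young serum and 33.4, 33.3 and 28.8 CPM after EV-depleted serum. Saline and young serum were tight and apart, with a difference of -0.28 ± 0.10 (SE), which ran from -0.31 to -0.067 over all alternatives. Mrpl51, an addition of the mitochondrial lineage, had 115, 129.6, 129 and 138 CPM in saline, 104, 102, 110.3 and 91.4 CPM after young serum and 111, 134 and 102 CPM after EV-depleted serum. The young serum values lay below the saline values, and the difference was -0.32 ± 0.11 (SE), or -0.29 without saline 6.

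**Figure D4:**
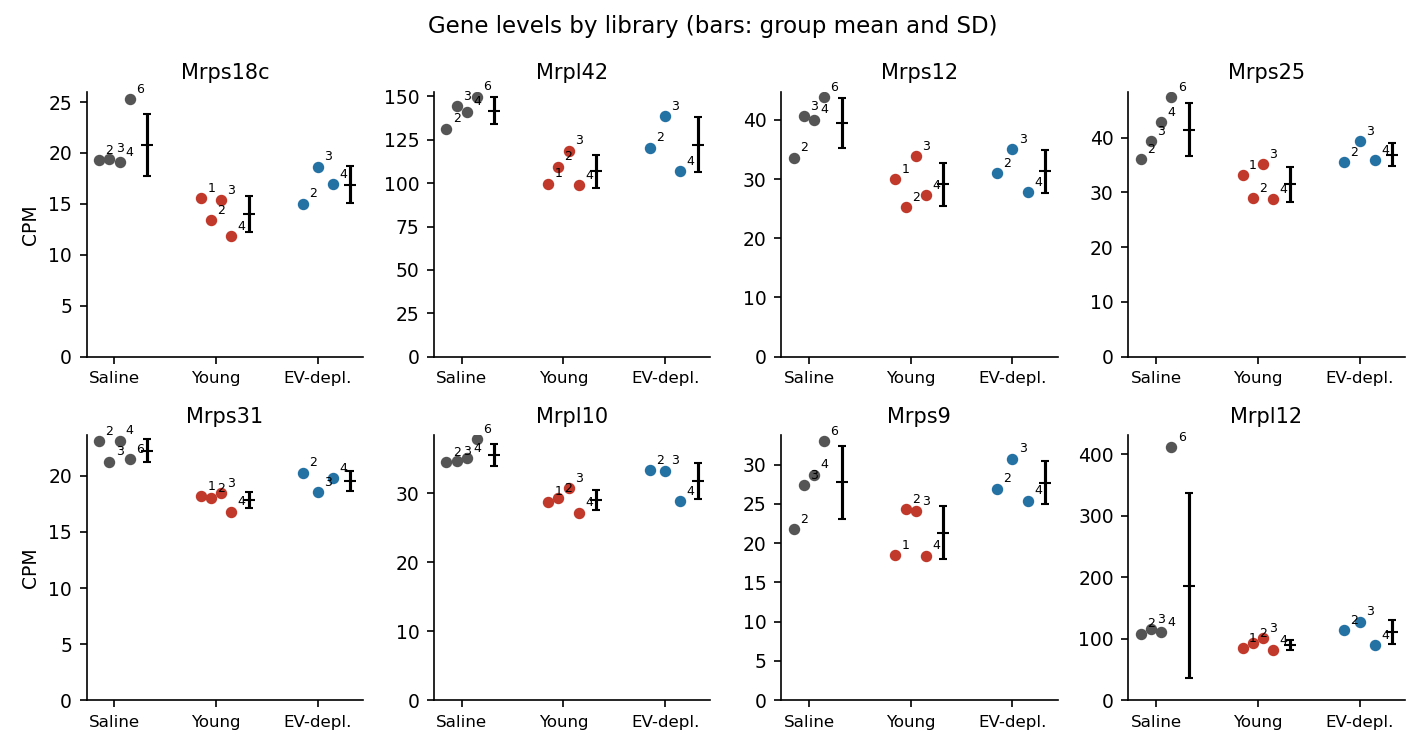
CPM of 8 genes in each library, with library numbers beside the points and group mean with SD in black; axes start at 0. Mrpl12 has 1 high point, saline 6 at 412 CPM, whereas Mrps31 has no high saline library and 3 groups that do not overlap.

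Members chosen for their known roles, or for their level, covered the rest of the range. Mrps6, a protein of the small subunit platform, had 10.1, 12.2, 18.9 and 19.8 CPM in saline, 10.4, 10.6, 12.9 and 8.14 CPM after young serum and 11.8, 11.98 and 9.69 CPM after EV-depleted serum. Saline 4 and saline 6 were both high, and the groups overlapped. Mrps7 had 73.7, 78.9, 76.2 and 109 CPM in saline, 63.5, 64.2, 72.03 and 61.1 CPM after young serum and 75.4, 84.4 and 66.1 CPM after EV-depleted serum, with no overlap between saline and young serum and a difference of -0.35 ± 0.13 (SE), or -0.23 without saline 6. Mrps21 had 76.01, 106, 92.8 and 127 CPM in saline, 66.5, 67.6, 81.9 and 67.8 CPM after young serum and 75.7, 101 and 66.2 CPM after EV-depleted serum. Its saline 2 value lay within the young serum range, and the difference was -0.48 ± 0.17 (SE). Mrps22, in which variants cause respiratory chain deficiency in people, had 10.9, 9.54, 11.9 and 10.7 CPM in saline, 11.5, 11.1, 9.43 and 9.10 CPM after young serum and 11.5, 11.4 and 13.4 CPM after EV-depleted serum. Its groups overlapped, with a difference of -0.063 ± 0.12 (SE) whose sign was the opposite under 5 alternatives given at the end.

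The large-subunit genes chosen for their roles included Mrpl3, Mrpl44 and Mrpl58. Mrpl3, close to the peptidyl transferase centre, had 32.5, 33.4, 28.99 and 35.3 CPM in saline, 29.3, 33.1, 31.6 and 27.5 CPM after young serum and 35.5, 30.99 and 38.4 CPM after EV-depleted serum. No group stood apart. Mrpl44, which has a fold of the RNase III family, had 27.9, 25.98, 28.1 and 33.8 CPM in saline, 23.7, 22.2, 27.6 and 23.1 CPM after young serum and 27.2, 28.6 and 24.5 CPM after EV-depleted serum. Young serum 3 reached into the saline range. Mrpl58, a relative of release factors that frees stalled chains, had 22.9, 26.00, 26.2 and 44.3 CPM in saline, 20.1, 21.1, 26.3 and 20.8 CPM after young serum and 25.3, 28.9 and 22.2 CPM after EV-depleted serum. The high value was saline 6, and the difference was -0.38 ± 0.19 (SE) with it and -0.18 without it.

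Some names do not match the place of the protein. Mrps30 and Mrps18a sit in the large subunit in structures of the particle, despite their symbols. Mrps30 had 27.5, 28.98, 36.05 and 41.4 CPM in saline, 27.03, 27.02, 32.4 and 22.4 CPM after young serum and 27.1, 33.02 and 22.1 CPM after EV-depleted serum, with overlapping groups. Mrps18a had 39.1, 56.9, 45.5 and 84.1 CPM in saline, 39.6, 39.3, 40.8 and 38.7 CPM after young serum and 45.1, 56.5 and 41.1 CPM after EV-depleted serum. The young serum libraries lay close together, and saline 2 was inside their range. Mrps18b, an S18 relative that sits in the small subunit as Mrps18c does, had 28.9, 35.3, 34.02 and 41.3 CPM in saline, 29.1, 29.4, 29.5 and 27.1 CPM after young serum and 30.6, 35.04 and 29.4 CPM after EV-depleted serum. Again saline 2 overlapped the young serum values. Mrps36 is known as a part of the 2-oxoglutarate dehydrogenase complex and not of the ribosome, and had 21.3, 27.2, 22.3 and 39.7 CPM in saline, 18.1, 17.7, 20.8 and 16.2 CPM after young serum and 23.04, 28.6 and 19.2 CPM after EV-depleted serum. All young serum values lay below all saline values, with a difference of -0.54 ± 0.19 (SE) and -0.35 without saline 6, and the copies named above make this level uncertain. With these genes placed by structure, the medians were -0.36 for 51 large-subunit and -0.36 for 26 small-subunit genes.

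EV-depleted serum against saline asks the same question of young serum depleted of vesicles. The level was lower for 65 of the 78 genes, 41 large and 24 small (50.4% of tested genes). The median log2 difference was -0.16 for large and -0.18 for small, against -0.0025 for all tested genes. No member and no tested gene passed an adjusted p of 0.05 (0%), and the smallest adjusted p among members was 0.404. At an unadjusted p under 0.05, 1 member was lower, Mrps12 (5.59% of tested genes), and 0 were higher (6.49%). The groups did not overlap for 4 members, all lower, Mrpl10, Mrpl17, Mrps18c and Mrps31 (4.03%), and 0 lay above (3.39%). With sample weights 0 members passed (13.6% of tested genes did). Saline 6 carried most of the size: without it the medians were -0.0091 for large and -0.081 for small, all tested genes stood at -0.033, and 47 of 78 members were lower (55%). Without saline 4 and 6 together the medians were 0.023 and -0.032. The large median was -0.25 without EV-depleted 3 and -0.092 without EV-depleted 4, and the small median was -0.28 without saline 2.

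For Mrps12 the EV-depleted mean lay between those of young serum and saline, at 31.3 ± 3.65 CPM (SD, n = 3), and the difference from saline was -0.33 ± 0.14 (SE) with a limma adjusted p of 0.404. Mrps18c gave -0.28 ± 0.15 (SE) (-0.19 without saline 6), Mrpl42 -0.22 ± 0.11 (SE), Mrpl24 -0.24 ± 0.13 (SE) (-0.16 without saline 6) and Mrps31 -0.18 ± 0.10 (SE) on the log2 scale. Mrpl52, another such addition, whose upstream stretch is printed above, had 25.1, 36.4, 33.4 and 62.5 CPM in saline, 25.02, 22.5, 25.6 and 21.8 CPM after young serum and 26.00, 32.1 and 21.7 CPM after EV-depleted serum. Saline 6 was the highest library, and saline 2 lay within the range of the EV-depleted group. Mrps16, a bacterial-type protein of the small subunit body, had 29.8, 39.2, 34.7 and 67.98 CPM in saline, 29.8, 25.1, 30.3 and 25.05 CPM after young serum and 28.2, 36.2 and 25.99 CPM after EV-depleted serum. Mrpl20, a bacterial-type protein of the large subunit, had 20.2, 24.8, 29.5 and 44.05 CPM in saline, 23.3, 19.8, 21.5 and 18.7 CPM after young serum and 19.5, 23.97 and 20.6 CPM after EV-depleted serum. In both the highest value was saline 6 and the groups overlapped, and the differences moved from -0.44 ± 0.24 (SE) and -0.40 ± 0.21 (SE) to -0.20 and -0.20 without it.

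The differences between young serum and EV-depleted serum do not use the saline values, but the saline libraries, saline 6 included, enter the spread behind every SE, interval and p, since the groups were fitted together. Both comparisons with saline share those libraries, and each of them shares a serum group with this one. The level was lower after young serum for 76 of the 78 genes, 48 large and 28 small (51.3% of tested genes), with medians of -0.20 for large and -0.19 for small, against -0.0049 for all tested genes. No member and no tested gene passed an adjusted p of 0.05 (0%), and every member's adjusted p was 0.999983. At an unadjusted p under 0.05, 1 member was lower, Mrps9 (1.75% of tested genes), and 0 were higher (0.478%). All young serum libraries lay below all EV-depleted libraries for 15 members, 7 large and 8 small (4.16%), and 0 lay above (1.96%). With sample weights 0 members passed (0.182%). The small-subunit median was -0.12 without EV-depleted 3, and on the deposited TPM scale both medians were -0.07, with all tested genes at 0.075.

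Mrps9, a bacterial-type protein of the small subunit head (chr1:42851233-42905683, plus strand), had 21.8, 27.4, 28.7 and 32.97 CPM in saline, 18.4, 24.4, 24.1 and 18.4 CPM after young serum and 26.95, 30.8 and 25.4 CPM after EV-depleted serum. Young serum stayed below EV-depleted serum in every library and overlapped saline, with a difference of -0.37 ± 0.16 (SE), a 95% interval of -0.72 to -0.017 and a limma adjusted p of 0.999983. Mrps34 had 48.6, 58.5, 57.04 and 66.2 CPM in saline, 47.5, 49.1, 53.4 and 47.1 CPM after young serum and 60.01, 54.4 and 58.4 CPM after EV-depleted serum. Mrps35 had 13.8, 15.9, 18.9 and 22.8 CPM in saline, 11.5, 12.7, 15.5 and 10.9 CPM after young serum and 16.00, 17.3 and 14.99 CPM after EV-depleted serum. Mrps27, a pentatricopeptide repeat protein that binds RNA, had 30.3, 28.7, 27.3 and 32.7 CPM in saline, 25.3, 28.7, 27.9 and 25.2 CPM after young serum and 31.4, 28.9 and 32.4 CPM after EV-depleted serum. For Mrps34 and Mrps27 the 2 serum groups did not overlap, whereas for Mrps35 young serum 3 lay inside the EV-depleted range, and the differences were -0.22 ± 0.12 (SE), -0.20 ± 0.11 (SE) and -0.33 ± 0.17 (SE).

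Of the large subunit, Mrpl21 (bacterial type) had 23.4, 23.8, 22.7 and 33.7 CPM in saline, 19.9, 19.4, 22.3 and 16.3 CPM after young serum and 24.2, 26.7 and 23.1 CPM after EV-depleted serum. Young serum lay below both other groups, which overlapped each other, and the difference from EV-depleted serum was -0.33 ± 0.16 (SE). Mrpl47, a protein near the exit of the nascent chain, had 11.4, 12.7, 12.7 and 13.6 CPM in saline, 10.6, 13.04, 11.1 and 9.44 CPM after young serum and 14.3, 12.9 and 13.3 CPM after EV-depleted serum. Young serum 2 reached the EV-depleted range. Mrpl39 had 17.8, 15.7, 17.3 and 19.04 CPM in saline, 13.4, 14.99, 17.2 and 12.2 CPM after young serum and 17.7, 17.2 and 17.7 CPM after EV-depleted serum. Its EV-depleted libraries lay close together and just above young serum 3. Mrpl50 had 36.00, 31.8, 37.8 and 37.8 CPM in saline, 33.4, 33.1, 33.95 and 28.1 CPM after young serum and 36.4, 35.5 and 40.6 CPM after EV-depleted serum. The serum groups did not overlap for Mrpl50, with a difference of -0.22 ± 0.11 (SE), and saline spread across both.

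Members with bacterial homologues (45) and additions of the mitochondrial lineage (32) gave these medians: -0.38 and -0.31 for young serum against saline, -0.22 and -0.15 for EV-depleted serum against saline, and -0.19 and -0.20 for young against EV-depleted serum. Without saline 6 the first 4 of these were -0.23 and -0.19, and -0.054 and 0.013, so the sign turned for the additions in EV-depleted serum against saline. Mrps36 is in neither class. Across the 11 libraries the median Pearson correlation between pairs of members on the log2 scale was 0.77 (3003 pairs), 0.75 within the large subunit, 0.79 within the small and 0.77 between them. Without saline 6 these were 0.69, 0.67, 0.73 and 0.69. The pairs share libraries and scaling, so these values are a description, as are those of cytosolic ribosomal protein genes (0.80) and complex I genes (0.88).

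Other genes of mitochondrial translation were taken as fixed lists. The 5 ribosomal proteins under other symbols (Dap3, Ptcd3, Chchd1, Aurkaip1 and Gadd45gip1) were all lower after young serum than in saline, with a median of -0.52 (-0.24 without saline 6), and 0 passed the adjusted threshold. Aurkaip1 had 59.6, 64.4, 65.3 and 110.2 CPM in saline and 47.8, 43.6, 51.2 and 43.3 CPM after young serum, which did not overlap. Of 30 assembly and ribosomal RNA processing factors 22 were lower, with a median of -0.15. Of 15 translation factors 9 were lower (median -0.055), and of 20 mitochondrial tRNA synthetases and partners 13 (median -0.047). Among all tested genes 52.5% were lower in this comparison. The 9 tested genes of mitochondrial transcription had a median of -0.037 (-0.076 without saline 6). None of these genes passed the adjusted threshold. Tsfm, an elongation factor, had 16.97, 18.8, 21.6 and 23.9 CPM in saline and 12.9, 13.2, 16.7 and 11.96 CPM after young serum, without overlap. Wars2, the mitochondrial tryptophanyl-tRNA synthetase, went the other way, with 2.61 to 4.37 CPM in saline and 4.65 to 5.16 CPM after young serum. Cytosolic ribosomal protein genes had medians of -0.64, -0.51 and -0.12 in the 3 comparisons in the order given above, and complex I genes -0.54, -0.23 and -0.31. Without saline 6 the comparisons with saline gave -0.37 and -0.26 for the cytosolic list and -0.30 and -0.017 for complex I. Of the 36 complex I genes 19 were then lower in EV-depleted serum, against 55% of all tested genes.

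**Figure D5:**
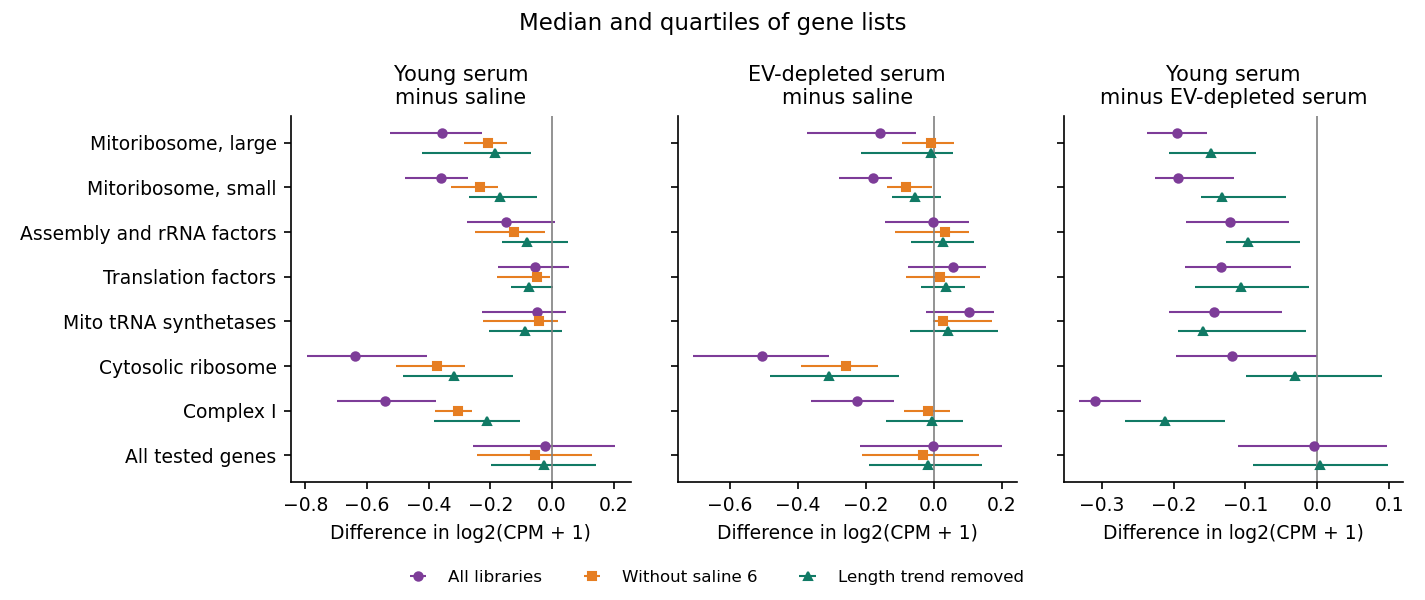
Median (symbol) and quartiles (line) of the difference in log2(CPM + 1) for 8 gene lists in 3 comparisons, with all libraries, without saline 6 and after removal of the transcript length trend. The 2 mitochondrial ribosome lists lie at -0.36 in the first panel, between complex I at -0.54 and the assembly factors at -0.15.

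Transcript length moved with these results. The median transcript length of all tested genes with a length was 2597 bases, against 1090.5 bases for the 14 members at least 2-fold in saline 6 and 1259 bases for the other 64. The Spearman correlation of the young serum difference with length was 0.40 over the 78 members and 0.56 over 12965 genes, a description across genes. Genes of 1000 bases stood 0.66 higher than genes of 4000 bases in saline 6 on the log2 scale, relative to each gene's mean, while this value was -0.038 to 0.25 in the other saline libraries, -0.27 to -0.060 after young serum and -0.34 to 0.18 after EV-depleted serum. After removal of the trend the medians of large and small members were -0.19 and -0.17 for young serum against saline, -0.0079 and -0.054 for EV-depleted serum against saline, and -0.15 and -0.13 for young against EV-depleted serum. The numbers of lower members were then 70, 45 and 72 of 78, beside 54%, 52.5% and 49% of all tested genes.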

How the data were processed

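RNA was measured in 11 libraries of old mouse muscle. FastQC, STAR, DESeq2 and the build mm10 are named, without versions or roles, in the submitters' processing notes. The authors deposited a CPM table of 18269 genes and a TPM table of the same genes. From the values, CPM sums to 1000000 per library, and the deposited TPM is CPM divided by genomic span, introns included, so CPM was used and TPM was an alternative. Too few low CPM values (75.6% to 79.0%) were whole reads within 0.1 reads for a count test.

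Values were taken as log2(CPM + 1), and genes that reached 1 CPM in 3 or more libraries (13187, with 5082 removed) were fitted with limma 3.58.1 in R 4.3.3, with 3 groups in 1 model, a trended prior and two-sided tests. Benjamini-Hochberg adjustment over all tested genes at 0.05 set the calls. The fit was also run on simulated data, in which genes varied independently with the spread of each gene within groups. Those data held no outlying library, length trend or correlated genes, so the simulation does not bear on such features here. Fold changes are on the log2(CPM + 1) scale and understate those of low genes. Non-overlap compares CPM of all libraries of 2 groups.

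The genes named with values per library are, in each comparison, the 4 of each subunit with the smallest p, the 2 of each subunit with the highest and the lowest level, and a list of 13 with known roles. Members and lists were chosen with earlier results of these data known. Transcript length is the median over protein-coding basic transcripts of GENCODE M21. Deviations from group means in same-numbered libraries correlated at -0.28 to 0.30 in 9 pairs (median 0.092, 4 above 0.1). In 31 pairs with different numbers this was -0.50 to 0.54 (median -0.040, 10 above 0.1). So few pairs cannot show whether the numbers mark pairs. The labels do not say so either, and no pairing was used in the main fit. TMM scaling was computed without weights on CPM. Alternatives without saline 4 and 6 together and with length trends removed were chosen after seeing the data.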

Additional observations from a re-analysis of the deposited data

Results flagged for a closer look

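In groups of 4 libraries, 1 library lay far from the others for the values that follow, by Dixon's criterion at 95%, which chance meets in about 1 of 20 groups. Saline 6 was the high library for Mrpl12 (412 CPM), Mrpl11 (145 CPM), Mrps7 (109 CPM), Mrpl58 (44.3 CPM), Mrpl21 (33.7 CPM) and Mrps18c (25.3 CPM). It was also high for the summed large-subunit level (4052 CPM) and for the ratio of large to small sums (2.76). Over all 78 genes, saline 6 met the criterion for 23, 19 large and 4 small, and no other saline library did for any. The share of all tested genes that met it was not counted for any library, so the counts here describe the members only.

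Among the young serum libraries, number 4 was low for Mrpl50 (28.1 CPM) and Mrps18b (27.1 CPM), and number 3 was high for Mrpl58 (26.3 CPM) and Mrps21 (81.9 CPM). These 4 were all of the 78 genes that met the criterion in that group. The EV-depleted group, with 3 libraries, was not examined in this way.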

How the results depend on the processing

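The calls rest on few libraries. With sample weights, whose estimation did not converge, 3441, 1794 and 24 genes passed in young serum against saline, EV-depleted serum against saline and young against EV-depleted serum, and 27, 0 and 0 members. In young serum against saline, leaving out each library in turn gave 0 to 251 genes passing, with 251 without saline 2 and 1 without saline 6, and 0 members each time. In EV-depleted serum against saline it gave 0 to 5 genes, the filter of 5 CPM gave 3, removal of saline 4 and 6 gave 2, and the replicate block gave 6. The small-subunit median for young serum against saline was -0.17 after removal of the length trend and -0.15 with the longest principal transcript as length, the definition tried first and replaced after its result was seen. With deposited TPM the large and small medians of young against EV-depleted serum were both -0.07 (-0.074 and -0.067). The causes of these moves were not tested.

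With the replicate number as a replicate block, in which saline 6 and young serum 1 have no partner, the large and small medians were -0.18 and -0.23, -0.0091 and -0.081, and -0.19 and -0.17 in the 3 comparisons, with 0 members passing.

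The opposite direction was found for Mrps22 in young serum against saline with deposited TPM (0.000814), sample weights (0.050), no saline 4 and 6 (0.0058) and the length trend removed by median length (0.16) or by the longest transcript (0.19). It was also found for Mrps18b in that comparison (0.020 and 0.021 with the length trend removed) and for Mrpl42 in EV-depleted serum against saline (0.010 and 0.027). Of 711 values for 35 results of single genes, 702 kept their direction. Size moved more than direction in young serum against saline. The weakest value over all alternatives was -0.057 for Mrpl42, -0.067 for Mrpl10, -0.17 for Mrpl24 and -0.26 for Mrpl51. It was -0.10 for Mrps31, -0.12 for Mrps12, -0.18 for Mrps18c and -0.26 for Mrps25. In the leave-one-out fits the large median ran from -0.44 to -0.21 and the small from -0.44 to -0.23 in young serum against saline, and in all of them these stayed negative.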
